A study of Mus musculus with 12 samples.

Results

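Luminal cells of the mouse mammary gland were compared with basal cells of the same gland in control animals. The comparison rests on the 3 libraries labelled luminal control and the 3 labelled basal control, 6 of the 12 libraries of the series, and it runs over the 14903 genes, of 27179 in the deposited table, that passed a filter on low counts. Control mice carried floxed Foxp1 alleles, Foxp1(fl/fl), with no Cre transgene in their label. The other 6 libraries come from MMTV-cre/Foxp1(fl/fl) mice, in which Cre is driven by the promoter of the mouse mammary tumour virus and is meant to delete Foxp1, a forkhead transcription factor, in the mammary epithelium. Their gene-level Foxp1 count was not below that of controls, as given at the end, so they are called knockout-labelled here. They serve to estimate the spread between replicates and, at the end, to set the cell type difference of the second genotype beside that of the controls. All mice were female. Their age, the number of mice per library and the way basal and luminal cells were separated are not stated in the labels, which list no agent either. The labels call the 3 libraries of a group biological replicates, and the tests measure the spread between these libraries.

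The mammary duct is built of an inner layer of luminal cells, which line the lumen and make milk after pregnancy, and an outer basal layer that rests on the basement membrane. The basal layer consists largely of myoepithelial cells, which contract in response to oxytocin and eject milk, and it also holds cells with stem cell activity in transplantation. The luminal layer holds hormone-sensing cells, which carry the receptors for estrogen and progesterone and pass the signal on through secreted ligands, and progenitor cells that give rise to the milk-secreting alveoli.

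Each control library held between 9769361 and 11133908 counts. On log2 CPM, which is counts scaled to library size, the 6 libraries fell into 2 cell types along the first principal component, which held 69.7% of the variance. The second, with 18.2%, set replicate 3 of both cell types apart from replicates 1 and 2, at -70.5 for basal and -54.6 for luminal replicate 3 against 17.9 to 44.2 for the other 4. Transcripts of salivary secretory proteins, from a list of 27 genes, made up 12.7%, 1.35% and 7.52% of the counts of luminal replicates 1, 2 and 3, and 0.106% to 0.477% of those of the basal libraries. Luminal replicate 2 in turn had 3.68% of its counts on Rn45s, the ribosomal RNA precursor. These shares move with the luminal label, and their part in the results below was not tested beyond fits that leave libraries out.

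**Figure D1:**
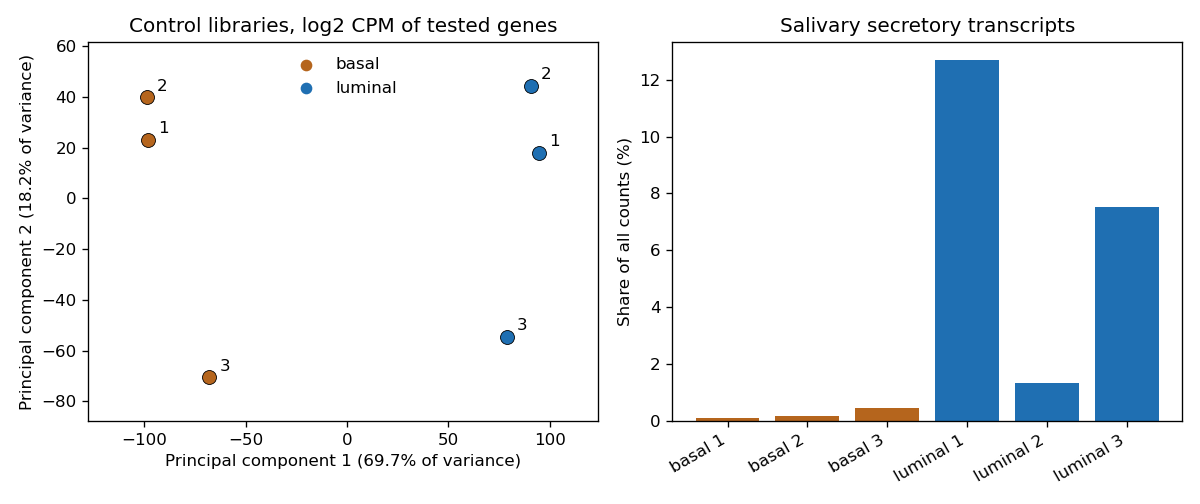
Left, the 6 control libraries on the first and second principal components of log2 CPM, numbered by replicate; right, the share of each library's counts on the list of salivary secretory transcripts. Cell type separates the libraries along the first axis and replicate 3 of both cell types lies at the bottom of the second, while luminal replicates 1 and 3 carry 12.7% and 7.52% salivary transcripts.

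Basal and luminal cells differed in the level of 4942 genes, 33.2% of those tested. Of these, 2435 (16.3%) were luminal, that is higher in luminal cells, and 2507 (16.8%) were basal, where called means a Benjamini-Hochberg adjusted p under 0.05 in edgeR's quasi-likelihood test over all tested genes. Fold changes are log2 ratios of luminal over basal, so a positive value is higher in luminal cells, and SE is the standard error. A value in parentheses after the levels of a gene is its log2 fold change, and genes said to be higher or lower passed the adjusted threshold. Counts of called list members below are to be read beside the shares over all tested genes, 16.3% higher and 16.8% lower. The median fold change was 1.41 among genes called higher, -1.88 among genes called lower and 0.04 over all tested genes. In a test of whether a difference exceeds 2-fold, 2017 genes were called (13.5%), of which 846 (5.68%) were luminal and 1171 (7.86%) basal, and 247 called genes were at least 16-fold higher against 415 at least 16-fold lower. The basal libraries thus held the larger number of strongly different genes at each of these marks. The 3 libraries of one cell type did not overlap those of the other for 6575 genes (44.1%), 3416 with luminal above (22.9%) and 3159 with luminal below (21.2%). In bulk RNA, fewer cells of a type and less RNA per cell cannot be told apart, and this holds for every fold change here. With luminal replicate 2 alone in the luminal group, 2746 genes were called, 2556 of them among the 4942 and in the same direction. Without basal replicate 1 the number called higher fell from 2435 to 1549. Same-numbered libraries of the 2 cell types deviated together. The fit that blocks on replicate number called 6528 genes over all 12 libraries, and 5050 with only the 6 control libraries.

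**Figure D2:**
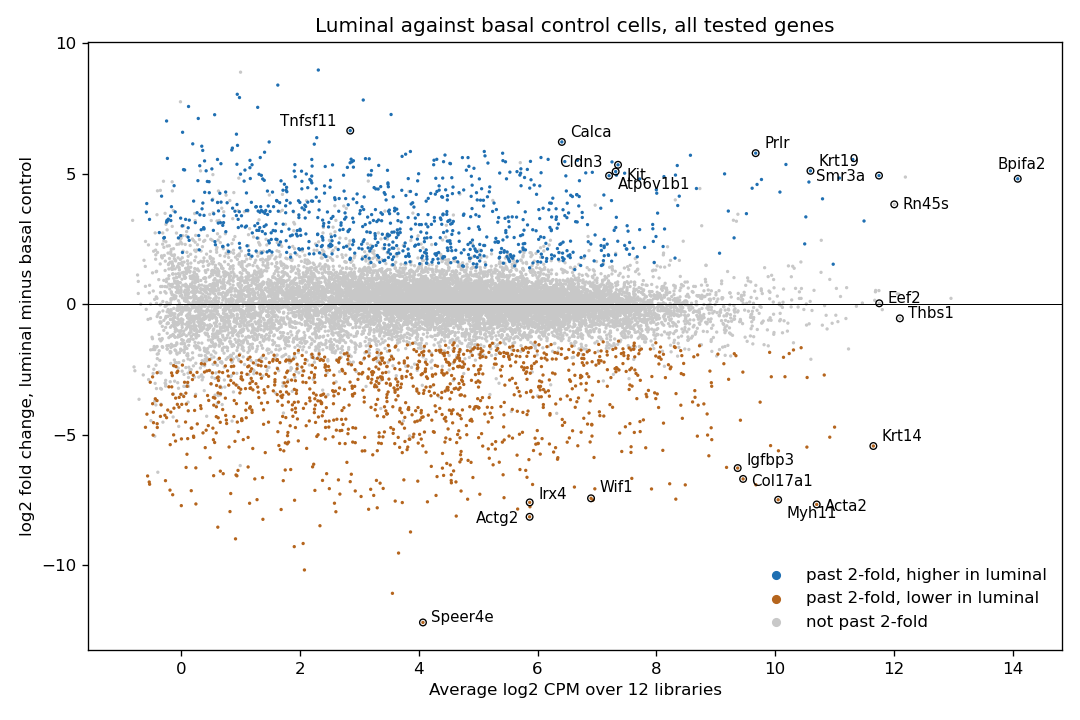
Each point is 1 of the 14903 tested genes, with its average log2 CPM over the 12 libraries on the x axis and its log2 fold change of luminal over basal controls on the y axis; blue and brown points differ by more than 2-fold and circles mark labelled genes. The brown cloud of genes lower in luminal cells reaches further from 0 than the blue one, with 114 called genes at least 64-fold lower and 22 at least 64-fold higher.

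Keratins, the intermediate filament proteins of epithelia, served as a check of the labels. Krt5 stood at 2386, 2574 and 7270.2 CPM in basal and 23.6, 12.8 and 321 CPM in luminal libraries. Krt14, its partner in the filament, was at 4810.5, 4101 and 7295 CPM in basal and 56.9, 36.3 and 282 CPM in luminal libraries. Replicate 3 was the highest of its group for both genes in both cell types. Krt5 (log2 fold change -5.10, SE 1.18, adjusted p = 0.00645), Krt14 (-5.43, SE 0.77), Krt15 and Krt17 were lower in luminal cells, whereas Krt6a and Krt16 were not called. Krt8 was at 605, 500.4 and 428 CPM in basal and 4486, 3373 and 6133 CPM in luminal libraries. Krt18 was at 181, 129 and 194 CPM in basal and 2961, 1940.5 and 3380.4 CPM in luminal libraries. Krt19 was at 74.2, 45.6 and 83.5 CPM in basal and 2654, 1687 and 2691 CPM in luminal libraries. Their groups did not overlap, as in 22.9% of all tested genes with luminal above. The log2 fold changes were 3.19 (SE 0.33), 4.04 (SE 0.33) and 5.11 (SE 0.37), with adjusted p of 4.51e-06 for Krt19. Per length, basal libraries carried 283 RPKM, which is CPM per kilobase of transcript, of Krt8 against 2584 in luminal libraries, and luminal libraries carried 75.3 RPKM of Krt14 against 3254 in basal ones. Each cell type thus held some transcripts of the keratins of the other. Krt7, a further simple-epithelial keratin, was called higher (log2 fold change 3.01, SE 0.91, adjusted p = 0.0258), but not without basal replicate 1 (0.0905), basal replicate 2 (0.0507) or luminal replicate 3 (0.0943). Krt20 and Krt23 were not called.

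Several genes were found almost entirely in basal cells. Speer4e (GRCm38 chromosome 5, 14933631 to 14938475), a member of a mouse gene family first described in testis, had 1687 counts over the 3 basal libraries and 0 over the luminal ones, which makes it at least 548-fold lower in luminal cells with the luminal group set to 3 counts. Its level was 86.1, 58.7 and 18.5 CPM in basal replicates 1, 2 and 3. Its relative Speer4d had 996 basal counts and 1 luminal count, a ratio of 970.0 with an exact 95% counting interval of 174 to 38300. The Speer4 genes have similar copies between which the counting could have shared reads. Luzp2, Vsnl1, a neuronal calcium sensor, Sez6l and Unc79, a subunit of a sodium leak channel complex, had 741, 563, 471 and 451 basal counts against 3, 3, 2 and 3 luminal counts. Their ratios were 241 (interval 82.0 to 1170), 183 (62.2 to 889), 229 (63.1 to 1900) and 146 (49.8 to 712). These intervals cover counting error alone. Vsnl1 was at 15.5, 17.9 and 19.8 CPM in the basal libraries, close together, whereas Speer4e and Sez6l were lowest in basal replicate 3.

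Genes found almost entirely in luminal cells had fewer counts. Upk2, uroplakin 2 of the urothelial plaque, had 357 luminal and 2 basal counts, which is a 183-fold ratio (interval 50.4 to 1520), at 11.04, 6.01 and 17.5 CPM in the luminal libraries. Apof, an apolipoprotein, had 191 and 3 counts (65.4, interval 22.0 to 320.0), and Tacr3, the receptor of neurokinin B, had 166 and 3 (56.8, interval 19.1 to 278). For these 3 genes every luminal library was above every basal one, as for 22.9% of all tested genes. Others varied widely among the luminal libraries. Ctsr, a cathepsin, had 187 luminal counts and 0 basal counts (at least 64-fold higher), but 0.468, 15.1 and 1.91 CPM in the 3 luminal libraries, and Spink1, a trypsin inhibitor, ran 18.5, 5.36 and 0.402 CPM. Amy2a1, a pancreatic-type amylase, had 171 luminal counts, at 8.89, 0 and 7.64 CPM, and 0 basal counts, and the adjusted p was 0.0858. Its order over the luminal replicates matches the order of salivary shares.

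The 15 largest falls were ranked among genes past 2-fold that averaged at least 3 on the log2 CPM scale and had groups that did not overlap. Besides the Speer4 genes they were Actg2, Col6a4, Cntn2, Luzp2, Adamts18, Acta2, Adamts20, Irx4, Kcnq5, Kcnmb1, Reln, Myh11 and Il17b, all with log2 fold changes between -7.47 and -8.15. Col6a4, a collagen VI chain, went from 76.5, 62.9 and 29.6 CPM in basal to 0.187, 0.185 and 0.201 CPM in luminal libraries (log2 fold change -8.12, SE 0.47, adjusted p = 1.91e-06). Cntn2, a neural cell adhesion molecule of the contactin family, was at 116, 142 and 82.03 CPM in basal and 0.187, 0.277 and 1.01 CPM in luminal libraries. Reln, the secreted glycoprotein reelin that guides neuron layering, was at 427, 334 and 77.2 CPM in basal and 2.25, 0.74 and 1.61 CPM in luminal libraries (-7.503, SE 0.70). Il17b, a member of the interleukin 17 family, was at 136, 74.6 and 35.1 CPM in basal and 0.187, 0.277 and 0.905 CPM in luminal libraries. For Reln and Il17b the lowest basal library was replicate 3 and it was still far above each luminal library.

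The 15 largest rises, ranked in the same way, included the prolactin receptor and several secreted or membrane proteins. Prlr, the prolactin receptor, was at 26.9, 12.5 and 17.1 CPM in basal and 1095, 745 and 1286 CPM in luminal libraries (log2 fold change 5.79, SE 0.48, adjusted p = 8.6e-06). Calca, the precursor of calcitonin and of calcitonin gene-related peptide, was at 8.297, 3.48 and 0.831 CPM in basal and 483, 419.7 and 32.2 CPM in luminal libraries, with luminal replicate 3 far below the other luminal libraries. Abcc8, the sulfonylurea receptor subunit of potassium channels, was at 0.622, 0.536 and 1.201 CPM in basal and 43.7, 31.6 and 53.9 CPM in luminal libraries (5.75, SE 0.50). Pik3cg, a catalytic subunit of phosphoinositide 3-kinase best known from leukocytes, was at 1.56, 0.447 and 0.462 CPM in basal and 56.3, 37.4 and 34.99 CPM in luminal libraries (5.72, SE 0.43). Gna14, a G protein alpha subunit, was at 0.726, 0.893 and 0.462 CPM in basal and 36.96, 43.1 and 27.5 CPM in luminal libraries (5.67, SE 0.48). Rasef, a Rab-like GTPase, Capn8, a calpain of the stomach, Ctse, the aspartic protease cathepsin E, Fgb, the fibrinogen beta chain, Cyp3a57, a cytochrome P450, Dkkl1, and Mgam, an intestinal maltase, had log2 fold changes between 5.57 and 5.85. Amy2a4, an amylase (7.83, SE 1.49), and Dcpp3, a salivary protein (5.71, SE 1.12), also belong to these 15 genes. They were at 0.555 and 193 CPM in luminal replicate 2, their lowest luminal library, and with that library alone their adjusted p was 0.299 and 0.0819. With that library alone the other 13 of these 15 genes had adjusted p between 0.000105 and 0.0454.

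Of 20 genes of the contractile and smooth muscle cytoskeleton, 19 were lower in luminal cells, against 16.8% of all tested genes. The list's median log2 fold change was -5.03 beside 0.04 over all tested genes. The list took 1.03% to 2.47% of the counts of basal libraries and 0.126% to 0.195% of those of luminal libraries. Acta2, smooth muscle actin, was at 4845, 5179.9 and 1242 CPM in basal and 12.3, 19.1 and 23.8 CPM in luminal libraries. Myh11, smooth muscle myosin heavy chain, was at 2690.1, 2915 and 867 CPM in basal and 6.18, 10.8 and 18.9 CPM in luminal libraries. Myl9, its regulatory light chain, was at 928, 805 and 232 CPM in basal and 1.68, 4.35 and 5.03 CPM in luminal libraries. Cnn1, calponin, was at 754, 883 and 238 CPM in basal and 5.71, 3.33 and 6.84 CPM in luminal libraries. Oxtr, the oxytocin receptor, was at 213, 377 and 55.2 CPM in basal and 25.5, 35.05 and 5.33 CPM in luminal libraries. In each of these 5 genes basal replicate 3 was the lowest basal library, and it remained above all luminal libraries. The groups were likewise apart, with luminal below, in 21.2% of all tested genes. The fold changes of Acta2 and Myh11 were -7.67 (SE 0.64) and -7.49 (SE 0.60), those of Myl9 and Cnn1 -7.47 (SE 0.61) and -6.88 (SE 0.54), and that of Oxtr -3.29 (SE 0.80), with adjusted p between 7.05e-06 and 0.00853. Des, desmin, was the 1 member not called (log2 fold change -1.62, SE 0.61, adjusted p = 0.0615), at 4.56, 6.7 and 2.77 CPM in basal and 1.497, 2.13 and 0.905 CPM in luminal libraries, and it was called with the replicate block (adjusted p = 0.00438). Among regulators of these genes, Myocd, the SRF cofactor myocardin, had 46 basal counts and 1 luminal count (ratio 44.8, interval 7.65 to 1810). Mkl1, a second SRF cofactor (-1.23, SE 0.18), Tead1 (-1.75, SE 0.33) and Yap1 (-1.63, SE 0.21), both of the Hippo pathway, were lower in luminal cells as well, whereas Srf itself, Tead4 and Wwtr1 were not called. Synpo2, synaptopodin 2 of the actin network, fell as well (-6.37, SE 0.50). Mkl2 went the other way (log2 fold change 0.59, SE 0.17, adjusted p = 0.0182), a call that was lost without basal replicate 1 (0.119), basal replicate 2 (0.0736), luminal replicate 1 (0.075) or luminal replicate 3 (0.0671).

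Promoter sequences were read for the contractile genes, because their levels moved together and because SRF and TEAD factors are known to bind such promoters. Windows ran from 250 bases before to 50 after the start site, from RefSeq on GRCm38.p6, and 11360 of the 14903 tested genes had at least 1. The TEAD motif CATTCC, on either strand, was in 7 of the 18 windows of the list (38.9%), against 12.6% of the windows of all tested genes, 14.0% of those of genes past 2-fold lower and 17.5% of those past 2-fold higher in luminal cells. Motifs were searched on both strands, without regard to overlaps. The CArG box of SRF was in 1 of the 18 windows (5.56%), against 1.29% of all tested. It was also in 3 of the 21 windows (14.3%) of the tight junction genes described below, all 3 of 1 gene. The mean GC content was 61.2% in the contractile list and 60.3% in all tested windows. Of the 20 genes, 17 had a window, and a match describes the letters alone. A forkhead motif (TGTTTAC) and an AP-1 motif (TGANTCA) were also searched, and were in 1 and 2 of the 18 windows, against 2.55% and 5.75% of all tested. The following stretches, upstream of the start site and written 5′ to 3′ on the gene's strand, show the motif in capitals for Acta2 (chr19:34255494-34255539, minus strand), Mylk, the myosin light chain kinase (chr16:34784772-34784817, plus strand), Cald1, caldesmon (chr6:34598331-34598376, plus strand), all with a TEAD motif, and Myl9 (chr2:156775283-156775332, plus strand) with the CArG box.
Acta2: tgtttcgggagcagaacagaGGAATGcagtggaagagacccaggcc
Mylk: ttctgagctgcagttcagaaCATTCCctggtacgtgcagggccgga
Cald1: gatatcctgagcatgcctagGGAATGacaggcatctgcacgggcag
Myl9: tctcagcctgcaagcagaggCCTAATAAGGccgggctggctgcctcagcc

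Transcription factors divided the 2 cell types. Of 17 tested factors on a list of basal factors, 12 were lower in luminal cells, against 16.8% of all tested genes, with a median of -2.83. Trp63, the p63 protein that keeps basal epithelium in its state, was at 272, 332 and 394 CPM in basal and 4.96, 2.03 and 15.7 CPM in luminal libraries (log2 fold change -5.46, SE 0.65, adjusted p = 8.05e-05). Snai2, the zinc finger repressor Slug, was at 133, 115 and 81.5 CPM in basal and 0.936, 1.02 and 2.11 CPM in luminal libraries (-6.34, SE 0.58). Id4, an inhibitor of helix-loop-helix factors, was at 109, 172 and 82.5 CPM in basal and 2.901, 2.96 and 3.12 CPM in luminal libraries (-5.33, SE 0.29). Irx4, an Iroquois homeobox factor, was at 126, 165 and 49.4 CPM in basal and 0.374, 0.37 and 1.01 CPM in luminal libraries (-7.60, SE 0.73). Each of these 4 genes was separated between cell types in all 6 libraries, as were 21.2% of all tested genes with luminal below. Tbx3, Twist2, Zeb2 and Nfib were not called. Foxi1, a forkhead factor of ion-transporting cells that stands on the same list, went the other way, from 0.519, 0.536 and 0.554 CPM in basal to 12.6, 11.7 and 12.1 CPM in luminal libraries (4.47, SE 0.55).

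Of 26 luminal factors, 12 were higher in luminal cells and 3 lower, with a median of 0.90. The shares over all tested genes were 16.3% and 16.8%. Elf5, the Ets factor of alveolar progenitors, was at 2.49, 4.02 and 8.78 CPM in basal and 144, 271 and 90.7 CPM in luminal libraries (log2 fold change 5.04, SE 0.54, adjusted p = 4.27e-05). Foxa1, the pioneer factor of hormone-sensing cells, was at 8.297, 6.52 and 13.9 CPM in basal and 136, 127 and 128 CPM in luminal libraries (3.77, SE 0.30). Cited1, a transcriptional coactivator, was at 5.08, 4.199 and 3.23 CPM in basal and 199, 129.6 and 79.9 CPM in luminal libraries (5.03, SE 0.40). Spdef, an Ets factor of secretory cells, was at 1.76, 1.16 and 1.94 CPM in basal and 19.5, 11.9 and 18.1 CPM in luminal libraries (3.34, SE 0.40). All 4 were higher in every luminal library than in any basal one, as were 22.9% of all tested genes. Gata3, often used as a luminal marker, was at 122, 111 and 94.03 CPM in basal and 178, 191 and 126 CPM in luminal libraries and just missed the threshold (log2 fold change 0.60, SE 0.21, adjusted p = 0.0506). It was called with the replicate block (adjusted p = 0.0423) and without luminal replicate 3 (0.024). Esr1, estrogen receptor alpha, was at 10.6, 4.56 and 71.6 CPM in basal and 61.8, 32.6 and 45.1 CPM in luminal libraries, so basal replicate 3 was above all luminal libraries (log2 fold change 0.69, SE 0.72, adjusted p = 0.502), and without that library it was called (adjusted p = 0.000504). The list also held 3 members lower in luminal cells, or 5 without basal replicate 3. Prdm1, the repressor Blimp1, was at 186, 87.01 and 149 CPM in basal and 4.49, 2.96 and 14.8 CPM in luminal libraries (-4.25, SE 0.65). Runx1, a Runt factor, was at 1175, 938 and 906 CPM in basal and 244, 159.5 and 365 CPM in luminal libraries (-1.97, SE 0.34). Tfap2c, AP-2 gamma, was at 301, 309 and 198 CPM in basal and 116, 161 and 94.1 CPM in luminal libraries (-1.12, SE 0.23).

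Tight junctions and apical polarity were luminal in these libraries, where 16.3% of all tested genes were called higher in luminal cells. Of 17 claudin and tight junction genes, 13 were higher in luminal cells, all 13 past 2-fold, with a list median of 3.06, and the counts of the list were 0.426% to 0.640% of luminal and 0.0990% to 0.177% of basal libraries. Cldn3 was at 9.75, 11.3 and 7.57 CPM in basal and 283, 429.7 and 262 CPM in luminal libraries (log2 fold change 5.09, SE 0.31, adjusted p = 1.91e-06). Cldn8 was at 1.76, 1.34 and 0.739 CPM in basal and 19.3, 41.4 and 19.5 CPM in luminal libraries (4.38, SE 0.51). Cldn10 was at 3.63, 1.43 and 1.48 CPM in basal and 37.4, 20.9 and 25.1 CPM in luminal libraries (3.68, SE 0.40). Claudins are the membrane proteins that seal the space between neighbouring cells. Marveld2, tricellulin of the contacts between 3 cells, was at 10.6, 9.83 and 17.3 CPM in basal and 104, 77.3 and 129 CPM in luminal libraries (3.04, SE 0.34). The members not called included Cldn12, F11r and the scaffold Tjp1. Of 15 genes of apical polarity and the brush border, 8 were higher, among them the mucin Muc1 at 16.6, 15.01 and 9.88 CPM in basal and 160.0, 151 and 82.1 CPM in luminal libraries (3.24, SE 0.40), the polarity genes Pard6b (2.38, SE 0.27) and Prkcz (2.16, SE 0.27) and the scaffold Slc9a3r1 (1.67, SE 0.19). Pard3, which forms a complex with the products of Pard6b and Prkcz, was lower, at 206, 184 and 167 CPM in basal and 109, 112 and 102 CPM in luminal libraries (-0.79, SE 0.13).

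The E-box CAGGTG, which Snai and Zeb repressors bind, was searched because Snai2 fell in luminal cells. On either strand it was in 11 of the 21 windows of the tight junction list (52.4%), against 18.8% of windows of all tested genes. These windows cover 14 genes, 8 of them with a motif. Among the 8 is F11r, which was not called (log2 fold change -0.12, adjusted p = 0.743). Overlapping windows of Ocln, and likewise of Marveld2, hold the same site, so it counts for each window. It was also in 5 of the 12 windows of the milk protein list (41.7%) and in 4 of the 18 of the contractile list (22.2%). Among genes past 2-fold it was in 31.1% of the windows of those higher and 20.4% of those lower in luminal cells. The mean GC content was 59.1% in the tight junction windows, 47.0% in the milk windows and 61.2% in the contractile windows. It was 57.3% for genes past 2-fold higher and 61.0% for those lower, and its part in these shares was not tested. The tight junction list was added to this search after its values had been seen. Examples with the E-box in capitals are Cldn4 (chr5:134946935-134946968, minus strand) and Cldn7 (chr11:69965304-69965389, plus strand), claudins whose transcripts were higher in luminal cells.
Cldn4: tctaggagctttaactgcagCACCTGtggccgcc
Cldn7: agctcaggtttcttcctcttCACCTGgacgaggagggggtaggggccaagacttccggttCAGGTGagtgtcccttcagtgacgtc

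Most of the called genes of adhesion to neighbours and to matrix were basal. Among 16 cadherin and desmosome genes, 8 were lower in luminal cells, against 16.8% of all tested genes. Cdh3, P-cadherin, was at 291, 300.4 and 251 CPM in basal and 5.15, 2.96 and 8.75 CPM in luminal libraries (log2 fold change -5.64, SE 0.49, adjusted p = 1.2e-05). Cdh2, N-cadherin, was at 14.002, 11.7 and 8.96 CPM in basal and 0.187, 0.555 and 0.302 CPM in luminal libraries (-5.003, SE 0.50). Cdh13, T-cadherin, was at 69.4, 69.6 and 46.1 CPM in basal and 0.561, 1.85 and 5.73 CPM in luminal libraries (-4.51, SE 0.72). The groups of these 3 cadherins, named for their low p, were apart in all 6 libraries, as were 21.2% of all tested genes with luminal below. E-cadherin, Cdh1, was not called. The desmosomal plaque protein Pkp2 went the other way, from 1.97, 2.86 and 4.34 CPM in basal to 85.3, 76.1 and 97.2 CPM in luminal libraries (log2 fold change 4.81, SE 0.30, adjusted p = 2.12e-06), while its relative Pkp1 was among the 8 lower genes. Dsg2 was also called higher (log2 fold change 0.76, SE 0.26, adjusted p = 0.0428), a call that was lost without any one of the basal replicates or luminal replicates 1 or 3 (adjusted p 0.0711 to 0.223).

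Of 20 basement membrane genes, 19 were lower in luminal cells and 15 past 2-fold, with a median of -3.05. Over all tested genes these shares were 16.8% and 7.86%. The list's share of counts was 0.827% to 1.5% in basal and 0.210% to 0.292% in luminal libraries. Col4a2, a chain of the collagen IV network, was at 1588, 1261 and 514 CPM in basal and 20.02, 32.3 and 39.7 CPM in luminal libraries (log2 fold change -5.19, SE 0.49, adjusted p = 1.84e-05). Col7a1, the anchoring fibril collagen, was at 1469.6, 1289 and 625 CPM in basal and 42.6, 15.9 and 46.1 CPM in luminal libraries (-5.02, SE 0.46). Col18a1 was at 323, 378 and 239.9 CPM in basal and 6.27, 9.43 and 16.2 CPM in luminal libraries (-4.88, SE 0.44). Hspg2, perlecan, was at 689, 745 and 326 CPM in basal and 48.5, 62.5 and 52.6 CPM in luminal libraries (-3.43, SE 0.31). Basal replicate 3 was the lowest basal library for all 4 and remained above the luminal ones. These genes were named for their low p, and 21.2% of all tested genes had groups apart with luminal below. The laminin chain Lama5 was the 1 member not called. Of 19 hemidesmosome and integrin genes, which bind cells to this membrane, 11 were lower, among them Col17a1, the hemidesmosomal collagen, at 1337, 1187 and 1436 CPM in basal and 12.8, 7.86 and 17.5 CPM in luminal libraries (-6.70, SE 0.58). Itga9 was at 148, 124 and 59.8 CPM in basal and 3.65, 2.59 and 4.22 CPM in luminal libraries (-4.98, SE 0.39). Itga1 was at 39.3, 31.8 and 22.4 CPM in basal and 1.96, 0.925 and 3.12 CPM in luminal libraries (-3.96, SE 0.43). Itga2, Itga7, Itgav, Itgb3, Itgb5, Itgb6, Itgb8 and Plec were not called. Among 20 matrix proteases and inhibitors 9 were lower, including Timp3, an inhibitor of metalloproteinases (-2.88, SE 0.36), and the aggrecanase Adamts5 (-3.06, SE 0.40). The 2 called higher in luminal cells, below the share of 16.3% over all tested genes, were a membrane protease and an Adamts protease. Mmp15 was at 14.4, 20.1 and 34.8 CPM in basal and 173, 305 and 144 CPM in luminal libraries (3.17, SE 0.45). Adamts15 was at 13.5, 18.6 and 8.87 CPM in basal and 53.8, 90.1 and 30.3 CPM in luminal libraries (2.09, SE 0.36).

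Notch signalling, in which a ligand on one cell activates a receptor on its neighbour, was split between the cell types. The shares called over all tested genes were 16.3% higher and 16.8% lower. Of 5 ligands, 4 were lower in luminal cells: Dll1 stood at 584, 487 and 267 CPM in basal and 7.58, 8.69 and 11.3 CPM in luminal libraries (log2 fold change -5.60, SE 0.35, adjusted p = 2.27e-06). Jag2 was at 226, 299 and 116 CPM in basal and 4.77, 5.18 and 6.54 CPM in luminal libraries (-5.28, SE 0.46). Jag1 was at 424, 252 and 429 CPM in basal and 30.04, 28.1 and 42.8 CPM in luminal libraries (-3.45, SE 0.32). Dlk1, an atypical ligand, also fell (-3.93, SE 0.60), and Dll4 was not called. The receptor Notch3 ran the other way, at 20.8, 20.01 and 61.5 CPM in basal and 183, 205 and 119 CPM in luminal libraries (log2 fold change 2.31, SE 0.51, adjusted p = 0.00478). Per length, basal libraries averaged 130.1 RPKM of Dll1 and 4.296 of Notch3, and luminal libraries 2.68 and 21.3. Notch1 was called higher (log2 fold change 0.64, SE 0.21, adjusted p = 0.04), a call that was lost without each library but luminal replicate 3 (adjusted p 0.0568 to 0.172), and Notch2 and Notch4 were not called. Of 10 targets and modifiers, 4 were higher, including Hes1, a repressor induced by Notch, at 92.9, 60.8 and 46.001 CPM in basal and 265, 337 and 260.2 CPM in luminal libraries (2.11, SE 0.31). Heyl was at 3.42, 3.39 and 2.31 CPM in basal and 30.9, 15.8 and 15.3 CPM in luminal libraries (2.76, SE 0.42). Nrarp, a feedback inhibitor, was higher too (1.20, SE 0.24). The fourth, Hey2, was called (adjusted p = 0.0419) and kept its call without luminal replicate 3, but lost it without any other library (0.068 to 0.137). The 3 lower genes were the glycosyltransferases Lfng (-1.77, SE 0.32) and Rfng (-1.30, SE 0.17), which modify Notch receptors, and Numbl, a Numb-like inhibitor (-2.44, SE 0.30).

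The 4 ErbB receptors, tyrosine kinases that bind EGF family ligands, were likewise divided. Egfr was at 189, 177 and 161 CPM in basal and 54.6, 62.8 and 76.4 CPM in luminal libraries (log2 fold change -1.44, SE 0.17, adjusted p = 7.81e-05). Erbb2 was at 46.9, 46.6 and 63.8 CPM in basal and 159.8, 129 and 152 CPM in luminal libraries (1.48, SE 0.17). Erbb3 was at 22.5, 17.2 and 62.5 CPM in basal and 196, 182 and 161 CPM in luminal libraries (2.40, SE 0.38). Erbb4 was at 0.415, 0.715 and 0.831 CPM in basal and 12.9, 11.01 and 10.6 CPM in luminal libraries (4.10, SE 0.50). No receptor overlapped between the cell types, which held for 44.1% of all tested genes. Per length Egfr was the highest of the 4 in basal cells (27.3 RPKM), while Erbb3 was the highest in luminal cells (44.7 RPKM, with Erbb2 at 29.4). Of 10 ligands, 4 were higher and 3 lower in luminal cells, against 16.3% and 16.8% of all tested genes. Areg, amphiregulin, which acts downstream of estrogen, was at 68.7, 19.3 and 110.4 CPM in basal and 465, 301 and 706 CPM in luminal libraries (2.89, SE 0.58). Btc, betacellulin, was at 1.04, 0.625 and 3.05 CPM in basal and 13.8, 18.7 and 26.3 CPM in luminal libraries (3.63, SE 0.53). Egf was at 1.14, 0.804 and 1.02 CPM in basal and 18.8, 4.16 and 7.74 CPM in luminal libraries (3.36, SE 0.72). Nrg4 was at 1.66, 0.804 and 1.57 CPM in basal and 11.3, 4.07 and 9.45 CPM in luminal libraries (2.62, SE 0.55). Over the luminal replicates Egf and Nrg4 followed the order of the salivary shares, whose part was not tested, and Areg and Btc did not. With luminal replicate 2 alone in the luminal group Areg, Egf and Nrg4 had adjusted p of 0.0602, 0.106 and 0.132. The 3 lower ligands were epiregulin and 2 neuregulins. Ereg, epiregulin, was at 107, 43.9 and 64.3 CPM in basal and 4.12, 0.37 and 4.73 CPM in luminal libraries (-4.55, SE 0.68). Nrg1, neuregulin 1, was at 39.7, 28.7 and 92.5 CPM in basal and 1.497, 0.925 and 8.24 CPM in luminal libraries (-3.92, SE 0.82). Nrg2 was at 6.95, 3.93 and 9.05 CPM in basal and 0.936, 0.555 and 0.704 CPM in luminal libraries (-3.16, SE 0.46). Neuregulins bind ErbB3 and ErbB4, whose transcripts were higher in luminal cells, as were those of Erbb2 and of the neuregulin Nrg4. Hbegf, Tgfa and Epgn were not called.

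**Figure D3:**
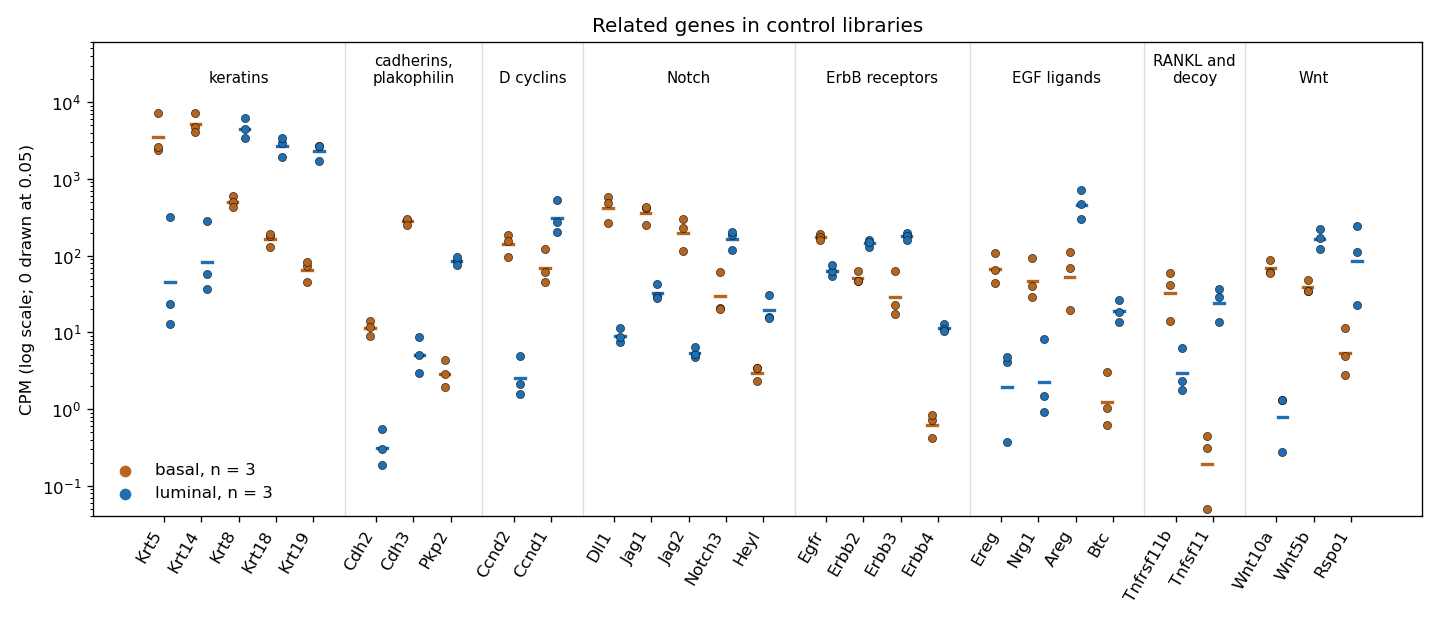
Each point is the CPM of a gene in 1 control library, on a log axis, brown for basal and blue for luminal; bars are geometric means of 3 libraries and a CPM of 0 is drawn at 0.05. Within each group of relatives some genes are higher in basal and others in luminal libraries, for example Ccnd2 at 185, 156 and 96.8 CPM in basal against 1.59, 2.13 and 4.93 in luminal libraries.

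FGF genes were mostly basal, beside shares over all tested genes of 16.3% higher and 16.8% lower. Of 4 receptors, Fgfr3 (-1.25, SE 0.18) and Fgfr4 (-4.30, SE 0.58) were lower in luminal cells, and Fgfr1 was called lower (-1.14, SE 0.32, adjusted p = 0.0179) except without luminal replicate 1 (0.0601) or 2 (0.0591). Fgfr2, the receptor needed for mammary bud formation, was not called. Among the ligands, Fgf1 was at 235, 205 and 183 CPM in basal and 52.9, 21.7 and 60.6 CPM in luminal libraries (log2 fold change -2.20, SE 0.35, adjusted p = 0.000571). Fgf2 was at 4.04, 2.77 and 3.14 CPM in basal and 0.187, 0 and 0.503 CPM in luminal libraries (-3.81, SE 0.79). Fgf21, better known as a hormone, was at 3.94, 2.05 and 13.4 CPM in basal and 0.281, 0.0925 and 0.704 CPM in luminal libraries (-4.15, SE 0.88). Of 8 tested ligands 5 were lower in luminal cells, 3 without luminal replicate 1, and 2, at low levels, were higher, 1 without basal replicate 3 or luminal replicate 3.

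Wnt signalling genes lay largely on the basal side, beside shares over all tested genes of 16.3% higher and 16.8% lower. Of 19 receptors and coreceptors, 13 were lower in luminal cells, with a median of -1.29, and 5 past 2-fold. Lgr5, the R-spondin receptor known from intestinal stem cells, was at 138, 181 and 79.9 CPM in basal and 5.33, 1.85 and 4.02 CPM in luminal libraries (log2 fold change -5.15, SE 0.50, adjusted p = 2.16e-05). Its relative Lgr4 was at 235, 255 and 151 CPM in basal and 41.8, 47.5 and 53.6 CPM in luminal libraries (-2.17, SE 0.21). Fzd7, a Frizzled receptor, was at 256, 278 and 141 CPM in basal and 52.2, 77.2 and 38.01 CPM in luminal libraries (-2.01, SE 0.33). With luminal replicate 2 alone in the luminal group, 5 members were called lower. Of 11 ligands, 4 were lower, among them Wnt10a at 86.9, 60.5 and 60.2 CPM in basal and 1.31, 0.277 and 1.31 CPM in luminal libraries (-6.16, SE 0.54). Wnt11 was at 127, 145 and 72.3 CPM in basal and 6.08, 3.42 and 10.7 CPM in luminal libraries (-4.09, SE 0.46). Wnt6 was at 10.4, 10.2 and 3.05 CPM in basal and 0.187, 0.0925 and 0.201 CPM in luminal libraries (-5.53, SE 0.78). Wnt5b was higher, at 35.1, 34.9 and 47.8 CPM in basal and 121, 169.7 and 221 CPM in luminal libraries (2.12, SE 0.29), and 2 ligands were higher with the replicate block and 3 without basal replicate 3. Wnt4, a mediator of progesterone, was not called. Secreted inhibitors were also basal: Wif1 was at 120.4, 175 and 42.5 CPM in basal and 0.374, 0.74 and 0.804 CPM in luminal libraries (-7.44, SE 0.66). Dkk3 was at 194, 179 and 129 CPM in basal and 5.61, 6.196 and 3.22 CPM in luminal libraries (-5.05, SE 0.38). Sfrp1 was at 90.2, 81.5 and 72.4 CPM in basal and 6.55, 5.64 and 9.15 CPM in luminal libraries (-3.52, SE 0.25). Rspo1, the R-spondin ligand that potentiates Wnt signals through Lgr receptors, was higher in luminal cells, at 4.98, 11.3 and 2.77 CPM in basal and 110.1, 246 and 22.6 CPM in luminal libraries (log2 fold change 4.31, SE 0.85, adjusted p = 0.00252), and was lowest in luminal replicate 3.

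Insulin-like growth factor genes showed 6 of 11 members lower and 1 higher, against 16.8% and 16.3% of all tested genes. The binding proteins, which hold IGFs in the extracellular space, were led by Igfbp3 at 1756, 1642 and 1719.8 CPM in basal and 7.11, 6.84 and 51.98 CPM in luminal libraries (log2 fold change -6.28, SE 0.79, adjusted p = 0.000121). Igfbp2 was at 175, 96.7 and 53.5 CPM in basal and 2.34, 0.555 and 2.61 CPM in luminal libraries (-5.88, SE 0.99). Igfbp7 was at 204, 223 and 153 CPM in basal and 15.3, 22.9 and 32.7 CPM in luminal libraries (-3.03, SE 0.29). Igfbp5 had more counts than these in both cell types, at 5990.5, 6038 and 1586 CPM in basal and 1384, 1876 and 891 CPM in luminal libraries, and its call (log2 fold change -1.71, SE 0.47, adjusted p = 0.0164) was lost without basal replicate 1 (0.056) or 2 (0.0603). Igf2, the fetal ligand, was higher in luminal cells, at 4.77, 6.79 and 6.93 CPM in basal and 108, 59.8 and 17.5 CPM in luminal libraries (3.32, SE 0.57). Within the TGF-beta and BMP family, 10 of 17 receptors and inhibitors were lower, including Tgfbr3, the coreceptor betaglycan, at 456, 476 and 136 CPM in basal and 16.2, 16.3 and 16.9 CPM in luminal libraries (-4.43, SE 0.44). Fstl1, a secreted follistatin-like protein, was at 324, 268 and 140.3 CPM in basal and 3.46, 7.68 and 18.5 CPM in luminal libraries (-4.63, SE 0.72). Acvr2a, an activin receptor, was lower too (-1.28, SE 0.19). Bmpr1b was the 1 higher receptor, at 0.311, 0.447 and 3.05 CPM in basal and 16.9, 6.66 and 10.4 CPM in luminal libraries (3.14, SE 0.69, adjusted p = 0.00477, or 0.0891 with luminal replicate 2 alone). Among the ligands, 1 morphogen was basal and an activin subunit luminal. Bmp7 was at 104, 137 and 55.5 CPM in basal and 2.15, 3.42 and 3.32 CPM in luminal libraries (-5.05, SE 0.44). Inhbb, a subunit of activin and inhibin, was at 12.9, 13.5 and 17.7 CPM in basal and 153, 184 and 228 CPM in luminal libraries (3.68, SE 0.36). Of the 14 ligands tested, Bmp1, a procollagen protease of the family, was also lower (-1.68, SE 0.20), Bmp3 was called higher (2.62, SE 0.71) except without basal replicate 2 (0.0578) or luminal replicate 3 (0.0738), and 10 were not called. The 2 higher and 2 lower ligands are near the shares over all tested genes, 16.3% and 16.8%.

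Of 20 hormone and nuclear receptors 4 rose and 5 fell in luminal cells, with a median of 0.11. These shares are near those over all tested genes, 16.3% higher and 16.8% lower. Besides Prlr and Rara, a retinoic acid receptor whose call was lost without each library but luminal replicate 2 (adjusted p 0.0535 to 0.167), the orphan receptor Esrrb was higher, at 0.622, 0.357 and 0.554 CPM in basal and 7.205, 9.34 and 9.25 CPM in luminal libraries (log2 fold change 4.05, SE 0.38, adjusted p = 1.82e-05). Pgr, the progesterone receptor, was at 17.7, 22.5 and 11.7 CPM in basal and 37.2, 36.1 and 132 CPM in luminal libraries (log2 fold change 1.98, SE 0.59, adjusted p = 0.0237), highest in luminal replicate 3, and its call was lost without basal replicate 1 (0.075), basal replicate 3 (0.07) or luminal replicate 3 (0.129). The number called higher was 2 without basal replicate 1 or luminal replicate 3, and the number called lower was 3 without basal replicate 2 or luminal replicate 2. Ppara, a fatty acid sensor, was lower in luminal cells, at 7.57, 6.07 and 3.14 CPM in basal and 1.03, 0.462 and 1.71 CPM in luminal libraries (-2.38, SE 0.56). Kit, the stem cell factor receptor that marks luminal progenitors, was at 7.68, 11.8 and 6.65 CPM in basal and 357, 539.9 and 167 CPM in luminal libraries (log2 fold change 5.34, SE 0.53, adjusted p = 2.41e-05). Of 11 mediators between hormone-sensing cells and their neighbours, 4 were higher and 5 lower. Tnfsf11, RANKL, the progesterone-induced cytokine, was at 0.311, 0.447 and 0 CPM in basal and 29.3, 36.9 and 13.6 CPM in luminal libraries (log2 fold change 6.65, SE 0.70, adjusted p = 3.71e-05). Its soluble decoy receptor Tnfrsf11b was lower in luminal cells, at 42.01, 59.2 and 14.1 CPM in basal and 1.78, 2.31 and 6.23 CPM in luminal libraries (-3.48, SE 0.59). Cxcl12, a chemokine, was at 284, 249.6 and 266 CPM in basal and 10.1, 5.55 and 15.2 CPM in luminal libraries (-4.70, SE 0.44). Csf1, the macrophage growth factor, was at 592, 316 and 581 CPM in basal and 50.4, 45.1 and 116 CPM in luminal libraries (-2.81, SE 0.52). Il4ra, an interleukin 4 receptor chain, was at 317, 235 and 222 CPM in basal and 64.9, 51.2 and 92.3 CPM in luminal libraries (-1.89, SE 0.32). The cell types did not overlap for these 5 mediators, which were named for their low p, as for 44.1% of all tested genes.

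Genes of axon guidance also steer epithelial branching and layering. Beside the counts that follow, 16.8% of all tested genes were lower and 16.3% higher. Of 23 ligands 13 were lower and of 23 receptors 10 were lower in luminal cells, with medians of -1.85 and -1.26, and the other members, save 1 ligand, were not called. Slit2 was at 41.2, 43.1 and 51.3 CPM in basal and 2.06, 1.85 and 2.01 CPM in luminal libraries (log2 fold change -4.51, SE 0.23, adjusted p = 1.23e-06). Slit3 was at 83.8, 91.3 and 41.3 CPM in basal and 0.468, 2.13 and 3.62 CPM in luminal libraries (-5.12, SE 0.63). Slits are secreted repellents of growing axons. Robo2, a Slit receptor, was at 43.04, 42.97 and 15.3 CPM in basal and 1.497, 0.74 and 1.11 CPM in luminal libraries (-4.91, SE 0.45). Sema5a was at 68.7, 41.2 and 48.1 CPM in basal and 1.22, 0.74 and 1.41 CPM in luminal libraries (-5.54, SE 0.42). Sema3c was at 149, 162 and 99.1 CPM in basal and 34.1, 33.8 and 18.9 CPM in luminal libraries (-2.24, SE 0.27). Semaphorins are guidance proteins that signal through plexins and neuropilins. Ephb1, an ephrin receptor, was at 73.5, 72.4 and 24.8 CPM in basal and 0.936, 1.202 and 0.503 CPM in luminal libraries (-5.99, SE 0.58). Epha4 was at 156, 157 and 119 CPM in basal and 29.4, 42.8 and 31.97 CPM in luminal libraries (-2.05, SE 0.22). Plxnd1, a semaphorin receptor, was at 39.2, 35.5 and 33.2 CPM in basal and 8.05, 10.8 and 12.2 CPM in luminal libraries (-1.80, SE 0.18). In these 8 genes, named for their low p, the cell types did not overlap, as in 21.2% of all tested genes with luminal below. Netrin-1, Ntn1, was the 1 ligand called higher, at 8.401, 11.5 and 11.6 CPM in basal and 176, 217 and 137 CPM in luminal libraries (log2 fold change 4.07, SE 0.26, adjusted p = 2.39e-06), and 3 ligands were called higher with the replicate block and 4 without basal replicate 3.

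Of 14 genes of endothelin and vasoactive signalling 3 were called higher and 4 lower, near the shares over all tested genes (16.3% and 16.8%). Edn1, the peptide endothelin 1, was higher in luminal cells, at 17.4, 6.52 and 19.3 CPM in basal and 75.8, 133 and 203 CPM in luminal libraries (log2 fold change 3.25, SE 0.46, adjusted p = 0.000278). Its receptor Ednra was lower, at 10.1, 8.93 and 4.99 CPM in basal and 1.497, 3.14 and 1.91 CPM in luminal libraries (-1.86, SE 0.48, adjusted p = 0.011). Agtr1a, the angiotensin receptor, was at 3.73, 1.61 and 1.94 CPM in basal and 123, 76.3 and 109.99 CPM in luminal libraries (5.41, SE 0.49). Adra1a, an alpha-1 adrenergic receptor, was at 0.726, 0.804 and 0.0924 CPM in basal and 20.02, 13.7 and 7.74 CPM in luminal libraries (4.65, SE 0.87). Both receptors were thus higher in luminal cells.

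Milk genes were transcribed in luminal libraries of these animals. Of 16 tested, 14 were higher in luminal cells, against 16.3% of all tested genes, with a median of 4.09. The list took 0.432% to 0.691% of luminal and 0.114% to 0.172% of basal counts. Csn1s1, alpha-S1 casein, was at 2.07, 1.88 and 1.66 CPM in basal and 52.7, 85.4 and 42.6 CPM in luminal libraries (log2 fold change 5.002, SE 0.41, adjusted p = 8.6e-06). Csn2, beta casein, was at 0.622, 0.447 and 0.369 CPM in basal and 13.2, 15.6 and 6.64 CPM in luminal libraries (4.60, SE 0.71). Btn1a1, butyrophilin of the milk fat globule, was at 1.56, 4.73 and 1.48 CPM in basal and 96.7, 178 and 75.5 CPM in luminal libraries (5.48, SE 0.48). Wfdc18 was at 15.04, 14.2 and 12.01 CPM in basal and 627, 687 and 332 CPM in luminal libraries (5.32, SE 0.41). Folr1, a folate receptor, was at 0.83, 0.715 and 0.831 CPM in basal and 22.6, 18.8 and 26.4 CPM in luminal libraries (4.82, SE 0.29). Luminal replicate 2, the library with the smallest salivary share, was the highest luminal library for Csn1s1, Csn2, Btn1a1 and Wfdc18 and the lowest for Folr1. The part of the salivary share in these levels was not tested. Glycam1 and Xdh were not called. The palindromic STAT5 motif TTCNNNGAA was searched, since prolactin acts on casein genes through STAT5. It was in 4 of the 12 windows of the list (33.3%), which cover 11 genes, against 6.96% of windows of all tested genes; the windows' mean GC content was 47.0% and 60.3%. The 4 genes were Csn1s1, Csn2, Csn1s2a, whose match lies 20 to 28 bases after the start site, and Glycam1, which was not called (log2 fold change -4.11, adjusted p = 0.0651). The upstream stretches of Csn1s1 (chr5:87666088-87666136, plus strand) and Csn2 (chr5:87699490-87699538, minus strand) follow with the motif in capitals, from RefSeq on GRCm38.p6.
Csn1s1: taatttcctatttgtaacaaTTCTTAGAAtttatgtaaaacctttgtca
Csn2: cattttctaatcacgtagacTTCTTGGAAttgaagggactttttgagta

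Lipid and energy genes differed less. The shares called over all tested genes were 16.3% higher and 16.8% lower. Of 21 genes of fatty acid and triglyceride synthesis, 9 were higher and 2 lower in luminal cells, with a median of 0.80, and 4 or 5 were higher without basal replicate 1, basal replicate 2 or luminal replicate 3. Scd1, the stearoyl-CoA desaturase, was at 68.3, 41.7 and 59.2 CPM in basal and 269.6, 228 and 525 CPM in luminal libraries (log2 fold change 2.60, SE 0.38, adjusted p = 0.000374). Plin2, the lipid droplet protein, was at 57.8, 49.8 and 86.1 CPM in basal and 177, 191 and 350.3 CPM in luminal libraries (1.89, SE 0.29). Fasn, fatty acid synthase, was lower in luminal cells, at 511, 529 and 448 CPM in basal and 237, 232 and 149 CPM in luminal libraries (-1.27, SE 0.24, adjusted p = 0.00216). Of 22 cholesterol genes, 2 were lower, among them Cyp51 (-1.32, SE 0.25), 6 without basal replicate 1, and 1 was higher, Tm7sf2 (1.37, SE 0.28), 3 without basal replicate 3. Of 19 glycolytic genes 6 were lower, among them Ldha, lactate dehydrogenase, at 724, 646 and 748 CPM in basal and 319.8, 284 and 391 CPM in luminal libraries (-1.09, SE 0.22), and the lactate exporter Slc16a3, at 19.4, 15.2 and 45.4 CPM in basal and 2.62, 1.85 and 3.42 CPM in luminal libraries (-3.34, SE 0.49). Aldoc, an aldolase, was higher in luminal cells, at 24.8, 15.5 and 15.5 CPM in basal and 191, 165 and 115 CPM in luminal libraries (3.08, SE 0.30), whereas the relative Aldoa was lower. None of the 31 tested genes of the respiratory chain was called by edgeR. At an unadjusted p under 0.05 edgeR gave 7 of them, all higher in luminal cells, DESeq2 and limma-voom called 0, 5 were called with the replicate block and 4 without basal replicate 3. The list median was 0.26.

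Channels, pumps and transporters differed in both directions. Of 28 genes of ion and water transport 13 were higher and 7 lower in luminal cells. The shares over all tested genes were 16.3% higher and 16.8% lower. Atp6v1b1, a subunit of the proton pump, was at 10.3, 11.4 and 8.498 CPM in basal and 316, 328 and 276 CPM in luminal libraries, and had the lowest p of all tested genes (log2 fold change 4.93, SE 0.18, adjusted p = 1.07e-07). Aqp5, a water channel, was at 2.49, 2.59 and 3.69 CPM in basal and 148, 118 and 139 CPM in luminal libraries (5.52, SE 0.50). Scnn1a, a subunit of the epithelial sodium channel, was at 9.75, 10.99 and 12.8 CPM in basal and 80.6, 57.8 and 102 CPM in luminal libraries (2.84, SE 0.21). Atp1b1, the sodium pump beta subunit, was at 50.5, 42.7 and 44.98 CPM in basal and 239, 218 and 281 CPM in luminal libraries (2.42, SE 0.26). Channels known from excitable cells were among the 7 lower genes. Cacna1c, a calcium channel, was at 65.5, 57.2 and 31.4 CPM in basal and 1.87, 1.202 and 1.71 CPM in luminal libraries (-5.001, SE 0.37). Cacna1g, another calcium channel, was at 98.5, 77.99 and 46.6 CPM in basal and 1.12, 0.925 and 1.31 CPM in luminal libraries (-6.04, SE 0.38). Kcnmb1, the smooth muscle subunit of calcium-activated potassium channels, was at 55.6, 44.5 and 13.4 CPM in basal and 0.281, 0.0925 and 0.201 CPM in luminal libraries (-7.55, SE 0.72). Trpv4, a mechanosensitive cation channel, was at 55.2, 63.3 and 30.3 CPM in basal and 2.81, 2.96 and 3.92 CPM in luminal libraries (-3.94, SE 0.31). The libraries of the 2 cell types were apart for all 8 genes, which were named for their low p, as they were for 44.1% of all tested genes. Of 19 amino acid and glucose transporters 8 were lower, or 13 with the replicate block, including Slc6a6, the taurine transporter, at 369.9, 306 and 184 CPM in basal and 46.2, 32.7 and 34.9 CPM in luminal libraries (-2.92, SE 0.26). Slc2a4, the insulin-sensitive glucose transporter, was at 53.6, 54.2 and 12.7 CPM in basal and 1.96, 1.66 and 2.31 CPM in luminal libraries (-4.34, SE 0.56). The glutamine transporter Slc1a5 was lower too (-2.01, SE 0.31). The others called were 3 higher genes, or 5 without basal replicate 3, led by the cationic amino acid transporter Slc7a2, at 75.9, 77.7 and 48.7 CPM in basal and 283, 236 and 396 CPM in luminal libraries (2.18, SE 0.38).

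Innate defence genes leaned to the luminal side. Of 28 tested, 12 were higher and 3 lower, with a median of 0.92, and 6 or 7 were higher without basal replicate 1, basal replicate 2 or luminal replicate 3. Cd14, the coreceptor for bacterial lipopolysaccharide, was at 9.13, 8.49 and 22.1 CPM in basal and 239.6, 259 and 197 CPM in luminal libraries (log2 fold change 4.13, SE 0.38, adjusted p = 1.61e-05). Tlr4, the receptor it serves, was at 6.43, 4.82 and 8.87 CPM in basal and 28.2, 21.9 and 33.9 CPM in luminal libraries (2.06, SE 0.31). Tnf, the cytokine, was at 5.497, 5.72 and 3.05 CPM in basal and 45.1, 70.4 and 38.4 CPM in luminal libraries (3.43, SE 0.33). Cxcl15, a chemokine, was at 2.39, 0.625 and 2.03 CPM in basal and 36.2, 36.8 and 149.5 CPM in luminal libraries (5.47, SE 0.79). Basal cells held more of Tlr2, at 108, 96.9 and 94.6 CPM in basal and 23.6, 23.1 and 28.3 CPM in luminal libraries (-1.997, SE 0.34), a receptor for bacterial lipoproteins. Icam1, an adhesion molecule, was at 2401, 2393 and 806 CPM in basal and 324, 322 and 170.3 CPM in luminal libraries (-2.78, SE 0.43). Ccl2, a chemokine, was at 53.9, 65.9 and 20.5 CPM in basal and 1.31, 1.94 and 8.55 CPM in luminal libraries (-3.58, SE 0.73). Toll-like receptors 2 and 4 thus lay on opposite sides. Of 13 antigen presentation genes 1 was higher, the peptide transporter Tap2 (1.28, SE 0.34), and 2 were called lower, no more than the shares over all tested genes, 16.3% and 16.8%. Cd74, the invariant chain, lost its call without basal replicate 2 (0.0756), luminal replicate 1 (0.0769) or luminal replicate 2 (0.0793), and Ciita, the class II transactivator, without basal replicate 1 (0.0721), basal replicate 3 (0.0605), luminal replicate 1 (0.0659), luminal replicate 2 (0.0515) or luminal replicate 3 (0.0755).

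Cell cycle genes showed no call in the lists of 20 G2 and M phase and 18 S phase genes. At an unadjusted p under 0.05 edgeR gave 0 and 1 of them, DESeq2 called 0 and 1, limma-voom 0 and 0, and the replicate block 0 and 1. Without luminal replicate 2 the S phase list had 2 lower calls, and without basal replicate 3 it had 1. The spread among replicates was wide: Mki67, the proliferation antigen, was at 55.6, 43.95 and 167 CPM in basal and 76.8, 150.5 and 20.9 CPM in luminal libraries (log2 fold change -0.10, SE 0.74, adjusted p = 0.932), so that replicate 3 was the highest basal and the lowest luminal library, and the fold change turned positive without either of these libraries. The D cyclins, which drive entry into the cycle, were split. Ccnd1 was at 60.99, 45.3 and 123 CPM in basal and 277, 536 and 201 CPM in luminal libraries (log2 fold change 2.14, SE 0.45, adjusted p = 0.0037). Ccnd2 was at 185, 156 and 96.8 CPM in basal and 1.59, 2.13 and 4.93 CPM in luminal libraries (-5.67, SE 0.57). Per length Ccnd1 averaged 20.1 RPKM and Ccnd2 25.3 RPKM in basal cells, against 88.95 and 0.499 RPKM in luminal cells. The retinoblastoma gene Rb1 was higher in luminal cells, at 46.7, 38.9 and 42.9 CPM in basal and 152, 220.1 and 91.7 CPM in luminal libraries (1.85, SE 0.29). The CDK inhibitor Cdkn1a, p21, was lower, at 743, 639.99 and 583 CPM in basal and 274, 107 and 248 CPM in luminal libraries (-1.64, SE 0.38). Of 15 cyclins and CDK inhibitors 3 were higher, or 6 without basal replicate 3, and 3 lower. The 3 higher and 3 lower genes are near the shares over all tested genes, 16.3% and 16.8%. None of 40 cytoplasmic ribosomal protein genes was called by edgeR, where 4 had an unadjusted p under 0.05, all higher in luminal cells, DESeq2 called 1, limma-voom 0 and the replicate block 4, and 2 were called without luminal replicate 3. Many ribosomal genes have near-identical pseudogene copies between which reads could have been shared, so their counts are uncertain.

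**Figure D4:**
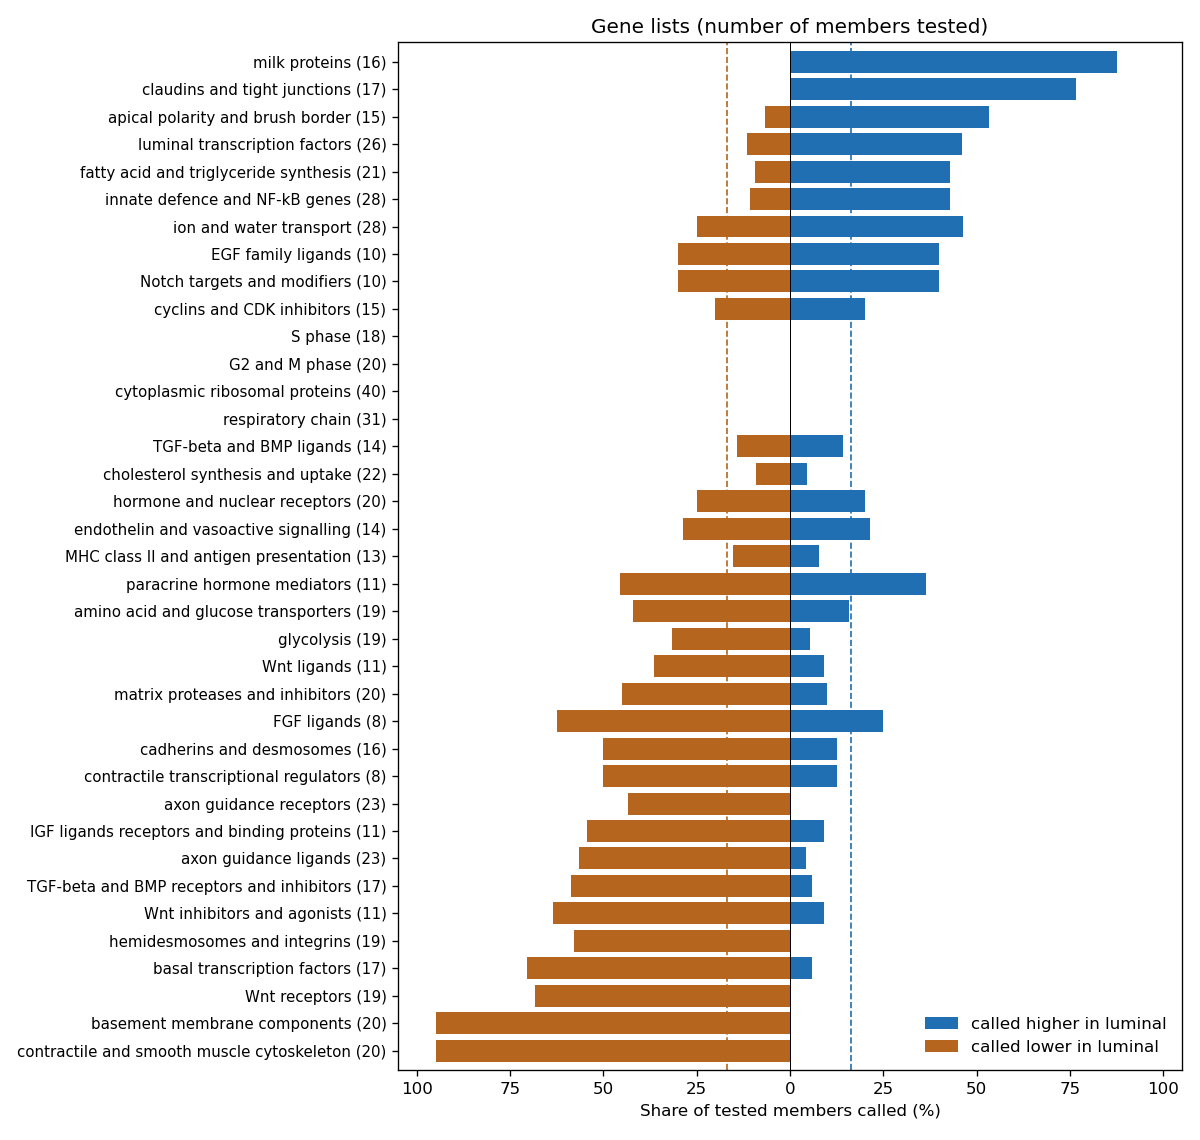
For each gene list with at least 8 tested members, the cell type marker, salivary and Hox lists left out, bars give the share of members called. Blue bars to the right are higher and brown bars to the left lower in luminal controls. Dashed lines are the shares over all tested genes, 16.3% and 16.8%. Milk and tight junction lists lie at the luminal end, contractile and basement membrane lists at the basal end. Ribosomal, respiratory, G2 and M phase and S phase lists show no bar.

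Each list of stromal, endothelial, blood, fat, nerve and skeletal muscle markers took at most 0.0731% of the counts of a control library. Single members such as Dcn were not low in basal libraries, and the salivary list, described below, took more. Beside the counts of called markers below stand the shares over all tested genes, 16.3% higher and 16.8% lower. Leukocyte markers took 0.00262% to 0.00599% of luminal and 0.00786% to 0.00955% of basal counts, with the B cell marker Ms4a1 at 0 in all 6 libraries, and 2 of 7 tested markers were called lower, the immunoglobulin chain Igkc at 6.33, 3.84 and 6.84 CPM in basal and 0, 0.925 and 0.905 CPM in luminal libraries (-3.20, SE 0.73), and Cd74. Endothelial markers took 0.00712% to 0.0194% of basal and 0.00989% to 0.0188% of luminal counts, and Vwf, the von Willebrand factor, was the 1 of 11 called higher (1.35, SE 0.26), while 2 were called lower without luminal replicate 3. Fibroblast markers took 0.0499% to 0.0731% of basal and 0.00771% to 0.0430% of luminal counts, with decorin, Dcn, at 245, 214 and 183 CPM in basal and 21.1, 40.97 and 122 CPM in luminal libraries. Of 14 fibroblast markers, 2 were called lower, Fbln1 (-4.23, SE 0.48) and Dcn (-1.80, SE 0.48, adjusted p = 0.0143, or 0.0554 without luminal replicate 2), and 1 higher, Dpp4. The Dpp4 call was lost without basal replicate 1 (0.0646), basal replicate 2 (0.0558) or luminal replicate 1 (0.07). Pdgfra, Col1a1 and Col3a1 were not called. Of 8 pericyte and vascular smooth muscle markers 5 were lower, 3 without basal replicate 1, basal replicate 3, luminal replicate 1 or luminal replicate 2, with Cspg4, the NG2 proteoglycan, at 21.1, 12.3 and 10.6 CPM in basal and 0.374, 0.185 and 0.905 CPM in luminal libraries (-4.90, SE 0.60). Rgs5 was at 6.53, 13.3 and 5.82 CPM in basal and 0.374, 1.48 and 2.31 CPM in luminal libraries (-2.62, SE 0.68). The markers Notch3 and Heyl, which are also Notch genes, were higher. The part of stromal cells in the basal results was not tested. Schwann cell and nerve markers took 0.0209% to 0.0315% of basal and 0.0432% to 0.0537% of luminal counts, of which Erbb3 and Sox10, both also epithelial genes, were called higher, Sox10 not without basal replicate 1 (0.104), basal replicate 3 (0.0754), luminal replicate 1 (0.0957) or luminal replicate 2 (0.0887). Ngfr, the low-affinity neurotrophin receptor that basal cells also carry, was at 22.9, 24.7 and 32.6 CPM in basal and 0.468, 0.185 and 1.21 CPM in luminal libraries (-5.43, SE 0.49), and of the myelin genes Prx was called lower and Mbp was not, with 1 lower call left on the list without basal replicate 2 or luminal replicate 1. Adipocyte markers took at most 0.0120%, skeletal muscle markers at most 0.000997% and red blood cell markers at most 0.000375% of the counts of any control library. Of 9 tested Hox genes, which set position along the body, 1 was called lower, Hoxc4, with 24 basal counts and 1 luminal count, and not without luminal replicate 1 (0.0595) or luminal replicate 2 (0.0579).

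Salivary transcripts were higher in luminal libraries for 16 of 21 tested genes, with a median of 4.36, or for 7 and 8 without basal replicates 1 and 2. Of all tested genes 16.3% were higher. Bpifa2, a parotid secretory protein, was at 563, 925 and 2051 CPM in basal and 61937, 5745 and 31544 CPM in luminal libraries (log2 fold change 4.81, SE 1.27, adjusted p = 0.0129), with adjusted p of 0.0589 and 0.0509 without basal replicates 1 and 2. Smr3a, a submandibular gland prohormone, was at 161, 311 and 834 CPM in basal and 22927, 2247 and 14683 CPM in luminal libraries (4.93, SE 0.97). Lpo, lactoperoxidase, which is also a milk enzyme, was at 5.81, 10.01 and 10.6 CPM in basal and 225, 28.9 and 135 CPM in luminal libraries (3.87, SE 0.76). Luminal replicate 2 was the lowest luminal library for each of the 3 and still exceeded every basal library, as the lowest luminal library did for 22.9% of all tested genes. With that library alone in the luminal group, edgeR called 0 of the 21 genes, 6 had an unadjusted p under 0.05 and 18 were higher, with a median of 2.14. Leaving the salivary list and Rn45s out of the scaling gave 4946 calls against 4942.

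The cell type difference could also be read in the knockout-labelled libraries, which share no sample with the controls. Of the 4942 genes called in controls, 4779 (96.7%) had the same sign there and 3851 were called in the same direction, out of 6044 calls (40.6% of tested genes). Foxp1 itself, the targeted gene, was at 221, 213 and 159.7 CPM in basal and 82.3, 61.96 and 78.2 CPM in luminal libraries of controls (log2 fold change -1.42, SE 0.19, adjusted p = 0.000236) and at 212, 193 and 284 CPM in basal and 161, 149.8 and 155 CPM in luminal knockout-labelled libraries, so its gene-level count was not lower there than in controls. A gene-level count can include reads outside a deleted part and is then no check of the labels, so directions between genotypes rest on the labels. The relative Foxp4 was called higher in luminal controls (log2 fold change 0.55, SE 0.15, adjusted p = 0.0173), except without basal replicate 1 (0.0501) or luminal replicate 1 (0.06), and Foxp2 was not called.

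The difference between luminal and basal cells differed between genotypes for 41 genes (0.275% of those tested), 33 of them among the 4942. The number was 12 to 86 without any one control library, lowest without basal replicate 2 and highest without luminal replicate 3. It was 22 with limma-voom, 106 with the replicate block and 356 with DESeq2. Col8a1, a short-chain collagen, was at 2.904, 2.68 and 2.31 CPM in basal and 143, 80.1 and 86.2 CPM in luminal libraries of controls, and at 4.66, 6.18 and 5.54 CPM in basal and 2.39, 3.67 and 2.67 CPM in luminal knockout-labelled libraries. Its log2 fold change was 5.29 in controls and -0.91 in the other genotype, a difference of 6.19 (adjusted p = 4.94e-05). The luminal level of this gene in controls was thus not found in the second genotype. Angpt1, the Tie2 ligand angiopoietin 1, was at 2.39, 2.86 and 1.94 CPM in basal and 10.4, 18.7 and 8.55 CPM in luminal libraries of controls and 20.9, 33.6 and 29.7 against 4.79, 3.31 and 2.87 CPM in the knockout-labelled ones, so luminal cells were above basal in the first genotype and below in the second (difference 5.33, adjusted p = 0.00184). Robo2 was at 17.5, 20.8 and 14.1 CPM in basal and 19.4, 28.5 and 22.4 CPM in luminal knockout-labelled libraries, where the cell types overlapped (difference -5.33, adjusted p = 0.00484). Cyfip2, a regulator of actin branching, was at 2.18, 1.88 and 2.402 CPM in basal and 0.936, 0.277 and 1.01 CPM in luminal libraries of controls and at 2.74, 3.05 and 1.74 against 24.9, 45.4 and 27.2 CPM in the second genotype (difference -5.22, adjusted p = 0.00522), and its control call was lost without luminal replicate 2 (0.0547). Ntn1 was luminal in both genotypes, with log2 fold changes of 4.07 and 1.26 (difference 2.81, adjusted p = 0.00522). Ryr3, a calcium release channel, was basal in controls, at 19.1, 15.5 and 7.48 CPM in basal and 0.187, 0.647 and 0.201 CPM in luminal libraries, and luminal in the second genotype, at 0.507, 2.87 and 1.09 CPM in basal and 7.88, 9.396 and 21.2 CPM in luminal libraries (difference -8.37, adjusted p = 0.00522).

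**Figure D5:**
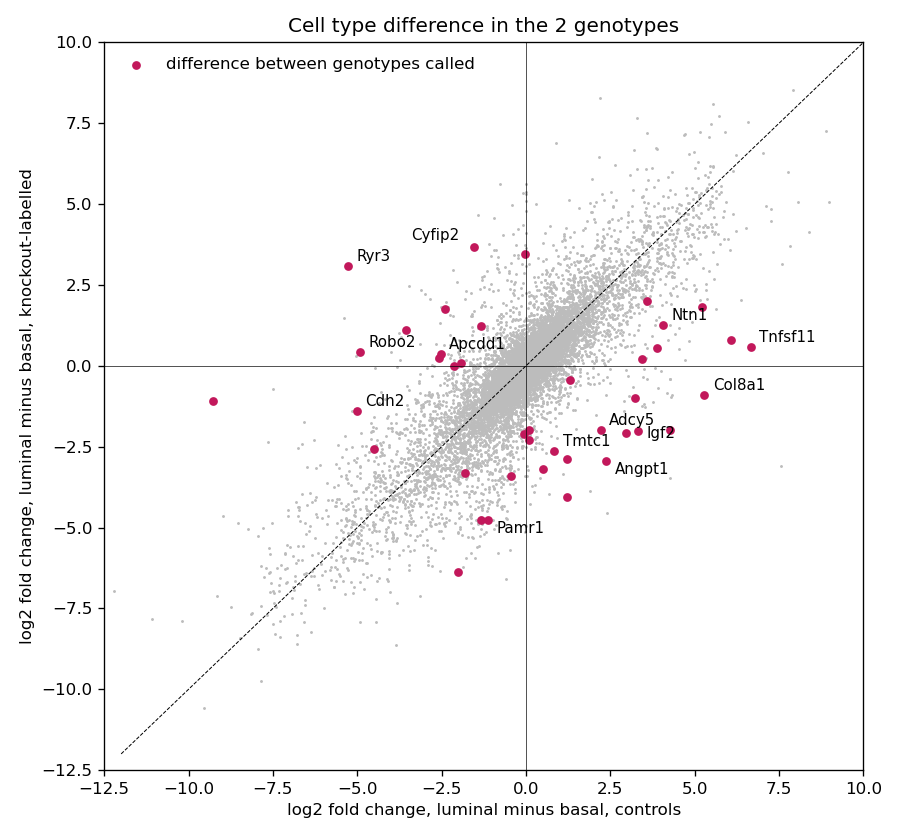
Each point is a tested gene, with its luminal over basal log2 fold change in controls on the x axis and in knockout-labelled libraries on the y axis; the dashed line marks equal values and the 41 red points are genes whose difference between genotypes was called. Most genes lie along the diagonal, and Ryr3, Col8a1, Angpt1 and Igf2 lie in quadrants where the sign changes.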

How the data were processed

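RNA was measured in 12 libraries made from total RNA with the TruSeq RNA v2 kit, per the labels' protocols. The authors deposited raw counts, 1 whole number per gene and library, with no normalization. Per the submitters' processing notes, CASAVA 1.8.2 and featureCounts were used on mm10. The aligner and the annotation used were not given in the sources used here. That kit does not mark strand, so reads of overlapping genes on opposite strands cannot be told apart, and genes with near-identical copies may have lost or shared reads. Depth was 9769361 to 11133908 counts per control library. Of 27179 genes, 859 have no symbol.

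Counts of all 12 libraries were fitted in edgeR 4.0.16 (R 4.3.3) with 4 group means, TMM factors, the default expression filter and the robust quasi-likelihood F test, with 8 residual degrees of freedom and a common biological coefficient of variation of 32.6%. Luminal against basal controls was the main contrast, tested also against a 2-fold null (glmTreat), and the interaction with genotype was the second. Adjusted p-values are Benjamini-Hochberg values over all 14903 genes, and every adjusted p of a gene is from this fit unless another is named. SE was taken as |log2 fold change| over √F. CPM use TMM factors, RPKM the deposited gene lengths, and n is 3 libraries per group. Ratios of genes with 3 or fewer counts in a group are of summed counts, with exact 95% intervals, and a group at 0 was set to 3 counts over the group.

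There were 54 lists with 841 distinct genes. Members, lists, tests and the rule for named genes were chosen with earlier results of these data known. The rule took the 15 largest rises and falls past 2-fold, up to 4 members per list and direction, the 10 most abundant genes per cell type, single-lineage genes, 18 fixed genes and 10 interaction genes, 286 in all. Other members are named only to account for a list, and some members are not reported here. Same-numbered luminal and basal controls deviated together (correlations 0.308, 0.425 and 0.473, against -0.448 to 0.117 for other pairs). The replicate number was therefore taken to pair them in the block, which is an alternative. Over all 12 libraries the block also ties knockout-labelled libraries to controls by number, which was not checked. The main fit, with its calls, SE and adjusted p, does not use this pairing. No 2 replicates agreed within sampling noise (chi-square per degree of freedom 11.8 to 137). Alternatives were other scalings and filters, DESeq2 1.42.0, limma-voom (limma 3.58.1), the block, fewer libraries and each control library left out. Simulated libraries served to test the edgeR step. RefSeq on GRCm38 (mm10) gave gene positions and promoters.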

Additional observations from a re-analysis of the deposited data

Results flagged for a closer look

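Of the named genes, 15 had a luminal over basal difference that itself differed between controls and knockout-labelled libraries in edgeR's interaction test. Values are the log2 fold change in controls minus that in knockout-labelled libraries. The difference was positive, meaning a lower luminal over basal ratio in the knockout-labelled libraries, for Col8a1 (6.19), Angpt1 (5.33), Adcy5, an adenylate cyclase (4.2), Ntn1 (2.81), Tmtc1 (3.48), Pamr1 (3.63), Igf2 (5.34), Plxnd1 (1.52) and Tnfsf11 (6.08). It was negative for Robo2 (-5.33), Cyfip2 (-5.22), Apcdd1, a Wnt inhibitor (-2.88), Ryr3 (-8.37), Slit2 (-1.95) and Cdh2 (-3.61). For 10 of the 15 the call held without any one control library and under limma-voom, DESeq2 and the replicate block. These 10 had been named for the lowest p in this same test, so their share says nothing of all 41 genes called in it. The other 5, Slit2, Igf2, Plxnd1, Tnfsf11 and Cdh2, lost it under limma-voom (adjusted p 0.0678 to 0.143) and without at least 3 of the 6 control libraries each. Knockout-labelled libraries were not left out in turn here. Luminal cells were at 1.097, 0.626 and 0.4 CPM of Tnfsf11 in knockout-labelled libraries 1, 2 and 3, against 29.3, 36.9 and 13.6 CPM in controls.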

How the results depend on the processing

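The 4942 calls moved within 1.5 times under other scalings, filters and tools, from 3649 with the 6 control libraries alone to 6528 with the replicate block, and from 3533 to 5211 without any one control library. Leave-one-out ranges were 1549 to 2487 for genes higher, 1984 to 2724 for genes lower, 1571 to 2268 past 2-fold, 12 to 86 for the difference between genotypes and 95.8% to 97.4% for the same sign in knockout-labelled libraries. In an alternative chosen after seeing the data, luminal replicate 2 alone in the luminal group, 2746 genes were called, 1274 higher and 1472 lower, and 1282 past 2-fold (the lone library is assumed to vary like the other groups). The 41 genotype differences became 356 with DESeq2, 22 with limma-voom and 106 with the replicate block; the causes were not tested. Of 266 named genes called, 232 kept the call without any one control library, and all 266 kept their sign with luminal replicate 2 alone. Many named genes were picked for a low p or a large difference, so this share is not that of all calls. Of the 4942 calls, 3452 were kept in the same direction without basal replicate 1 and 4338 without basal replicate 3. These were the lowest and highest numbers kept with 1 control library left out. The uncalled genes Eef2 and Mki67 changed sign: Eef2 (0.04) to -0.0034 with the block on the 6 control libraries and within -0.10 to 0.11 without one library, Mki67 (-0.10) to 0.75 with luminal replicate 2 alone and within -0.85 to 0.74 without one library. Amy2a1 had no counts in either group with luminal replicate 2 alone (value 0). The block changed the call of 8 named genes: Atp5c1, Ccne1, Cox7b, Des, Gata3, Rpl19 and Rpl22 gained it and Ptger4 lost it (adjusted p = 0.0568). In libraries simulated in this design, 100 genes of each size were changed among 14687, and edgeR found 20 at 2-fold and 75 at 4-fold. A far larger share of genes was called in the data, 33.2%, and the adjusted threshold depends on that share. The simulation therefore cannot give the share of changes near 2-fold that was missed in the data.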

Other observations

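The most abundant transcripts of the 2 cell types overlapped in housekeeping and mitochondrial genes. COX1, a mitochondrial gene, was at 8076, 6571 and 7969.5 CPM in basal and 9645, 7998 and 8795 CPM in luminal libraries. CYTB, another, was at 4160.2, 3661 and 3671 CPM in basal and 5536, 4612 and 4883 CPM in luminal libraries. Neither was called (adjusted p = 0.499 and 0.241). Eef2, the translation elongation factor, was at 3799, 3283 and 3238 CPM in basal and 4033, 3552 and 2992 CPM in luminal libraries. Hsp90ab1, a chaperone, was at 4302, 4478 and 3711 CPM in basal and 3907, 3969 and 2939.8 CPM in luminal libraries. Thbs1, the matrix protein thrombospondin 1, was at 6153, 4439 and 3072 CPM in basal and 2707, 2467 and 4213 CPM in luminal libraries and was not called (log2 fold change -0.54, SE 0.35, adjusted p = 0.266). Fos, an immediate early gene, was at 4904, 5221 and 1487 CPM in basal and 5066, 7533 and 2679 CPM in luminal libraries, lowest in replicate 3 of both cell types. Among genes called lower in luminal cells, basal replicate 3 was the lowest basal library for 67.9% and luminal replicate 3 the highest luminal library for 46.4%, against 45.4% and 38.4% of all tested genes.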
